A study of Mus musculus with 17 samples.

Results

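The 10 genes described here are the receptor chains for interleukin 5 (IL-5), interleukin 3 (IL-3) and granulocyte-macrophage colony-stimulating factor (GM-CSF), which are Il5ra, Il3ra, Csf2ra, Csf2rb and Csf2rb2, the feedback inhibitors Cish, Socs1, Socs2 and Socs3, and the kinase gene Pim1. They were picked by gene symbol and are 10 of the 22180 mouse genes that could be tested. The array reads 6 of them with 1 probe set each and 4 of them (Cish, Socs2, Socs3 and Pim1) with 2, and the mean over a gene's probe sets was used unless a probe set is named.

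The series asks what PIR-B does in eosinophils when IL-13 drives eosinophils into the esophagus, and it measured RNA of sorted eosinophils on 17 Affymetrix arrays. Every mouse, controls included, carried the CC10-IL13 transgene, in which the promoter of an airway club cell gene drives IL-13 under control of doxycycline (Dox). The IL-13 of the transgene is thus directed to the airway and not to the esophagus itself. Males and females of 6 to 8 weeks were either Pirb-/- (KO) or littermate Pirb+/+ (WT), and the Dox groups had Dox in the food for 2 weeks. The groups were esophagus KO Dox (n = 3), esophagus WT Dox (n = 3), marrow KO Dox (n = 3), marrow WT Dox (n = 3), marrow KO without Dox (n = 3) and marrow WT without Dox (n = 2). Cells were sorted as CD45+/SiglecF+/CCR3+ from collagenase-digested esophagus or needle-passed marrow, and the RNA was amplified before hybridisation. No label says whether the arrays of a group came from separate mice or from pools, so a p-value measures the spread between arrays, which may be technical.

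IL-5, IL-3 and GM-CSF each bind a ligand-specific alpha chain, which then pairs with a beta chain that carries the signal through the kinase JAK2 and the transcription factor STAT5. In the mouse the shared beta chain is encoded by Csf2rb, and a close copy used for IL-3, Csf2rb2, lies beside it. STAT5 in turn switches on genes of inhibitors that bind the receptor or the kinase, among them Cish and Socs family genes, and the survival kinase gene Pim1. IL-5 is the chief cytokine for the growth and survival of eosinophils, and eosinophils leave the marrow already bearing its receptor.

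The values are the authors' log values, taken here as log2, whose base no source used here states. Each probe set is centred, so that 0 lies in the middle of its arrays and is not a low level, and a value can be compared between arrays but not between genes. For the same reason the files show no absolute level against which the eosinophil identity of the cells could be checked. One array stood apart: marrow KO without Dox replicate 3 had a standard deviation over all probe sets of 0.811, against 0.25 to 0.30 for the other marrow arrays, and its mean correlation was -0.0268 with the arrays of its own group and 0.380 with WT esophagus. Results are therefore given with and without it. In tests between other groups it enters through the shared estimate of spread.

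The sequences that bear on STAT5 feedback are the start regions that hold the palindrome TTCNNNGAA, the textbook core of a STAT5 binding site. Among the 10 genes these were the regions of Cish, Socs3 and Csf2rb2, and they are shown for that reason. RefSeq (GRCm38.p6) gave 9 windows of 300 bases for 8 of the 10 genes, each from 250 bases before a listed start to 50 bases from that start on, and Csf2rb and Socs2 had none. The listed start is the outer end of the gene for Il5ra, Csf2rb2, Cish, Socs1 and 1 of the 2 windows of Pim1. It lies inside the gene span by 43 bases for Csf2ra, 583 bases for Il3ra, 970 bases for Socs3 and 2300 bases for the other window of Pim1, so the Socs3 window lies within the gene as given below. The windows are on the gene's own strand, 5′ to 3′, and the capitals mark the palindrome, which reads the same on both strands.
Cish, chr9:107296409-107296708, plus strand: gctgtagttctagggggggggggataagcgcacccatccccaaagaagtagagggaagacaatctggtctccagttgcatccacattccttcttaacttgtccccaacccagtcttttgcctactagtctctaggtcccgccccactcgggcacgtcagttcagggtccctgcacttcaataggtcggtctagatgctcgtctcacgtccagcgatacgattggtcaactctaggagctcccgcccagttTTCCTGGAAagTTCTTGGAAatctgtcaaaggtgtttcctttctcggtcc
Socs3, chr11:117969317-117969616, minus strand: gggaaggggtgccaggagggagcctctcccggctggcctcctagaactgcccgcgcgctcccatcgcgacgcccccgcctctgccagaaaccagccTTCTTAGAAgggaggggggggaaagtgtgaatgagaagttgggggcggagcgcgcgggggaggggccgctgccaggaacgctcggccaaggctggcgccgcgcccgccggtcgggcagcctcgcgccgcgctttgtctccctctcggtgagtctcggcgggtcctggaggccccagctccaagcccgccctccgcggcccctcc
Csf2rb2, chr15:78305672-78305971, minus strand: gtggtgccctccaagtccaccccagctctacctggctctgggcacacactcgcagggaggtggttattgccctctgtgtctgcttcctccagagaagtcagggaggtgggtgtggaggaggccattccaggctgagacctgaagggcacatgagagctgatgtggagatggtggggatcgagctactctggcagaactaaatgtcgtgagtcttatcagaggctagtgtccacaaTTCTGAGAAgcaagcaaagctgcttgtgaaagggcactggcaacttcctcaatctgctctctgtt
Cish held 2 copies, TTCCTGGAA at bases 1 to 9 and TTCTTGGAA at bases 12 to 20 counted from the first base of the listed start. Socs3 held 1 copy, TTCTTAGAA at bases -154 to -146 from its listed start, and Csf2rb2 held 1 copy, TTCTGAGAA at bases -15 to -7. The palindrome was not found in the windows of Il5ra, Il3ra, Csf2ra, Socs1 and Pim1. It occurs in 8.3% of all 32851 windows of this length, and in 2 or more copies in 0.457% of them. A match is only a run of letters, and no match says nothing about binding elsewhere.

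Under Dox, eosinophils from the esophagus differed from those of the marrow in 6 of the 10 genes in KO mice and in 5 of the 10 in WT mice, and every one of these was higher in the esophagus. The genes that passed in both genotypes were Csf2rb2, Cish, Socs2, Socs3 and Pim1, and Il5ra passed in KO mice. The test was limma's moderated test over all 22180 genes with Benjamini-Hochberg adjustment and a threshold of 0.05, and by that rule 4.5% of all genes were called higher in KO esophagus (10.5% in either direction) and 8.11% in WT esophagus (15.2% in either direction). The difference was above 0 for 10 of 10 genes in both genotypes, against 63.6% of all genes in KO mice and 70% in WT mice. The median difference of the 10 genes was 0.97 in KO and 0.88 in WT mice, against 0.060 and 0.14 for all genes. At an unadjusted p under 0.05 there were 8 of 10 genes in each genotype, against 23% of all genes in KO and 36% in WT mice. With the outlying array left out 7 of 10 passed in each genotype, where 9.75% of all genes were called higher in KO and 25.1% in WT esophagus. For 8 of the 10 genes in each genotype the arrays of the 2 tissues did not overlap, where 44% of all genes in KO mice and 46.1% in WT mice showed this. Both contrasts compare digested tissue with flushed marrow, so tissue of residence and preparation cannot be told apart, nor can fewer cells of a kind and less RNA per cell.

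**Figure D1:**
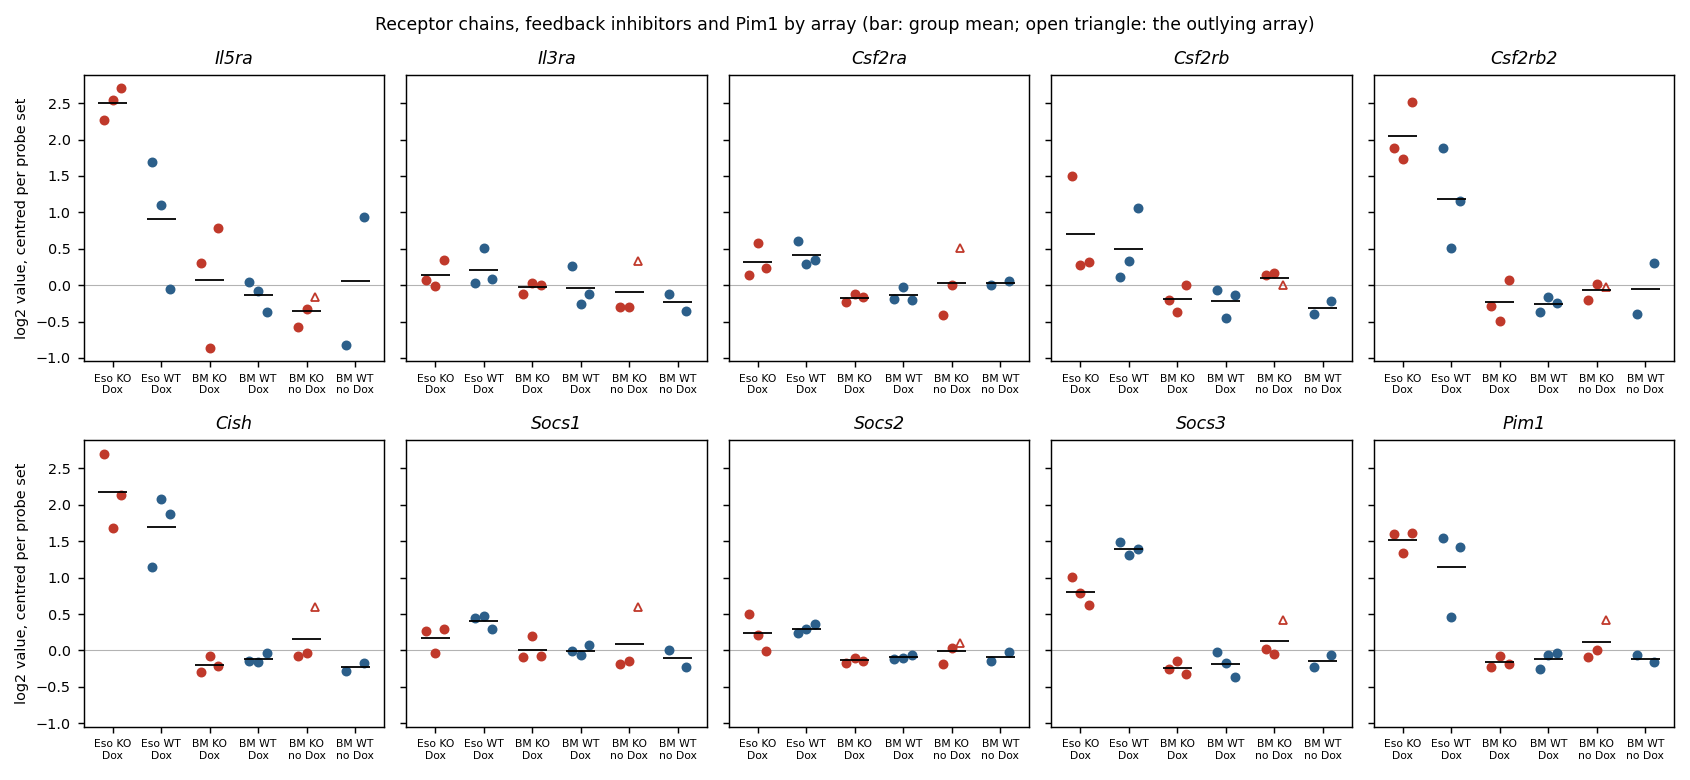
Value of each gene on every array (vertical axis, centred log2; 0 lies in the middle of the arrays of a probe set), by group along the horizontal axis, with a bar at the group mean and an open triangle for marrow KO without Dox replicate 3. Il5ra, Csf2rb2, Cish, Socs3 and Pim1 reach means of 0.80 to 2.51 in KO esophagus, while Il3ra, Csf2ra, Socs1 and Socs2 stay at means of 0.14 to 0.42 in both esophageal groups.

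Il5ra (chr6:106710375-106749037, GRCm38.p6 as are all gene positions here) encodes the alpha chain that binds IL-5. In KO mice Il5ra was 2.26, 2.55 and 2.71 in the 3 esophageal arrays, against 0.31, -0.87 and 0.78 in the 3 marrow arrays under Dox. In WT mice it was 1.69, 1.10 and -0.05 in the esophagus, against 0.05, -0.08 and -0.37 in marrow under Dox. All KO esophageal arrays lay above all others, whereas 1 of the 3 WT esophageal arrays lay within the marrow range. The tissue difference of Il5ra was 2.44 ± 0.50 (SE) on the log2 scale in KO mice, a 5.41-fold difference with adjusted p = 0.0064. In WT mice it was 1.05 ± 0.50 with a 95% interval from -0.03 to 2.12, and it did not pass (limma adjusted p = 0.147). The marrow arrays of Il5ra were themselves widely spread, from -0.87 to 0.93 over the 4 marrow groups.

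Il3ra (chr14:14345912-14355493), the alpha chain for IL-3, had group means from -0.24 in WT marrow without Dox to 0.21 in WT esophagus, and all neighbouring groups in that order overlapped. Its tissue difference was 0.16 ± 0.19 in KO and 0.25 ± 0.19 in WT mice, and neither passed. Csf2ra (chr19:61217191-61228461), the alpha chain for GM-CSF, was 0.15, 0.58 and 0.23 in KO esophagus, against -0.23, -0.12 and -0.16 in KO marrow under Dox. It was 0.60, 0.29 and 0.35 in WT esophagus, against -0.18, -0.03 and -0.21 in WT marrow under Dox. The esophageal arrays of Csf2ra all lay above the marrow Dox arrays. The difference of 0.49 ± 0.18 in KO mice (limma adjusted p = 0.121) and of 0.56 ± 0.18 in WT mice (adjusted p = 0.0559) fell short of the threshold with all arrays. With the outlying array left out the same differences passed at 0.0210 in KO and 0.0074 in WT mice.

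The beta chain genes lie next to each other on chromosome 15, Csf2rb2 at 78282507 to 78305721 and Csf2rb at 78325800 to 78351001, with 20078 bases between them. Csf2rb2, the IL-3 beta chain of the mouse, was 1.88, 1.74 and 2.52 in KO esophagus, against -0.28, -0.49 and 0.07 in KO marrow under Dox. Csf2rb2 in WT mice was 1.89, 0.52 and 1.16 in the esophagus, against -0.37, -0.16 and -0.25 in marrow under Dox. The tissues were apart in both genotypes, and the WT esophageal arrays were spread more widely than the KO ones. The difference was 2.28 ± 0.30 in KO mice (4.86-fold, adjusted p = 0.000356) and 1.45 ± 0.30 in WT mice (2.73-fold, limma adjusted p = 0.0088).

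Csf2rb, the beta chain shared by the 3 receptors, was 1.50, 0.28 and 0.31 in KO esophagus, against -0.20, -0.37 and 0.00 in KO marrow under Dox. In WT mice it was 0.11, 0.33 and 1.07 in the esophagus, against -0.07, -0.45 and -0.14 in marrow under Dox. One esophageal array of each genotype was far above its group's other arrays, although no esophageal array overlapped the marrow Dox arrays of its genotype. The difference of 0.89 ± 0.29 in KO and 0.72 ± 0.29 in WT mice did not pass (limma adjusted p = 0.0763 in KO and 0.104 in WT). Leaving out single arrays of the other genotype, which changes only the shared spread, brought it just past the threshold, at 0.0489 in KO mice without WT esophagus replicate 3 and at 0.0373 in WT mice without KO esophagus replicate 1. Leaving out the high array of the group itself lowered the difference, to 0.49 in KO mice without KO esophagus replicate 1 (adjusted p = 0.261) and to 0.44 in WT mice without WT esophagus replicate 3 (adjusted p = 0.321). Csf2rb and Csf2rb2 are close copies, and whether probes of one also read the other was not tested.

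**Figure D2:**
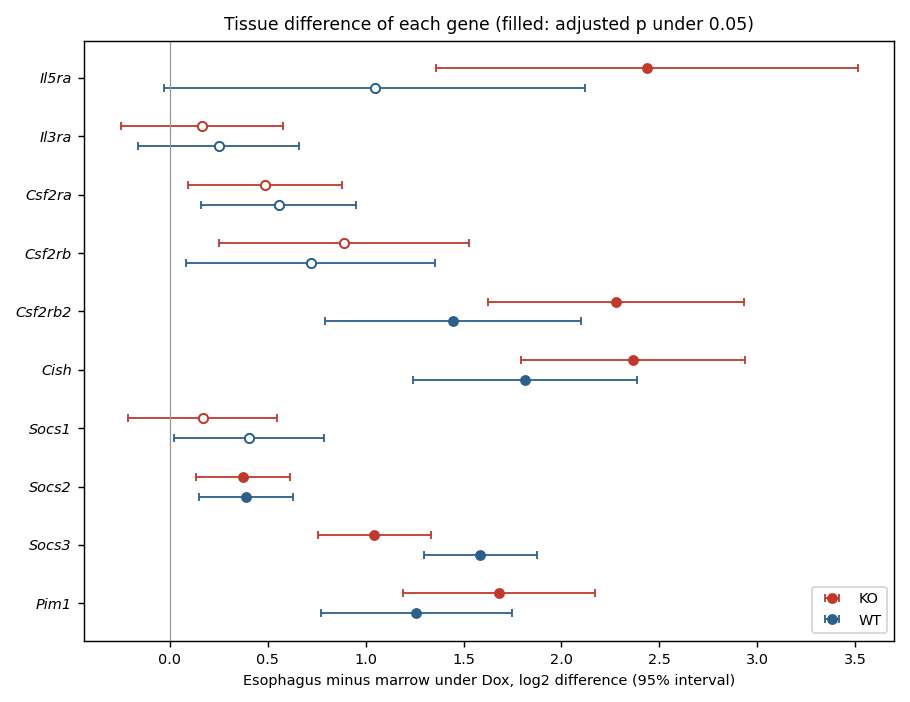
Esophagus minus marrow under Dox on the log2 scale (horizontal axis) for each gene, with 95% intervals, KO above WT in each row. Filled points passed the adjusted p threshold of 0.05, which 6 genes did in KO mice and 5 in WT mice, and every point lies above 0.

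Cish (chr9:107296659-107302784) encodes CIS, an inhibitor that STAT5 induces and that binds the activated receptor. Its mean over 2 probe sets was 2.70, 1.68 and 2.13 in KO esophagus, against -0.30, -0.08 and -0.21 in KO marrow under Dox. In WT mice it was 1.15, 2.08 and 1.87 in the esophagus, against -0.14, -0.16 and -0.03 in marrow under Dox. Every esophageal array was more than 1 log2 unit above every marrow Dox array of its genotype. The difference was 2.37 ± 0.26 in KO mice (5.16-fold, adjusted p = 9.1e-05) and 1.81 ± 0.26 in WT mice (3.51-fold, limma adjusted p = 0.000994). Both probe sets of Cish passed in both genotypes, at 3.28 ± 0.46 in KO and 2.59 ± 0.46 in WT mice for probe set 17530881 and at 1.46 ± 0.25 in KO and 1.03 ± 0.25 in WT mice for probe set 17521300. Over all 33793 probe sets 3.85% were called higher in KO and 7.09% in WT esophagus.

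Socs3 (chr11:117966079-117970336) encodes an inhibitor best known for feedback on STAT3-type receptors such as that of IL-6. Its mean over 2 probe sets was 1.00, 0.78 and 0.62 in KO esophagus, against -0.26, -0.14 and -0.32 in KO marrow under Dox. In WT mice it was 1.49, 1.32 and 1.39 in the esophagus, against -0.02, -0.18 and -0.36 in marrow under Dox. Here the WT esophageal arrays were the highest of all groups and the KO esophageal arrays lay between them and the marrow, with no overlap on either side. The tissue difference was 1.05 ± 0.13 in KO mice (2.06-fold, adjusted p = 0.000277) and 1.59 ± 0.13 in WT mice (3.00-fold, limma adjusted p = 1.2e-05). It rested on probe set 17547600, at 1.78 ± 0.17 in KO and 2.81 ± 0.17 in WT mice, while probe set 17272619 gave 0.31 ± 0.17 and 0.36 ± 0.17 and did not pass with all arrays (adjusted p over all probe sets 0.323 in KO and 0.154 in WT). With the outlying array left out, probe set 17272619 passed as well, at 0.0374 in KO and 0.0134 in WT mice.

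Socs2 (chr10:95383903-95417321) encodes a STAT5-induced inhibitor best known for restraining growth hormone signalling. Its values were small, with means of 0.24 ± 0.25 (SD, n = 3) in KO esophagus and -0.13 ± 0.04 in KO marrow under Dox, and of 0.30 ± 0.06 in WT esophagus and -0.09 ± 0.03 in WT marrow under Dox. The difference of 0.37 ± 0.11 in KO mice only just passed (adjusted p = 0.0494), and the difference of 0.39 ± 0.11 in WT mice passed at 0.034 by limma. Single arrays decide these calls: in KO mice leaving out any array other than KO esophagus replicate 3 or marrow KO no-Dox replicate 1 or 3 ended the call, with adjusted p from 0.0556 to 0.192. In WT mice leaving out WT esophagus replicate 2 or 3 or any WT marrow Dox array ended it, with adjusted p from 0.0674 to 0.102. Of its 2 probe sets, 17244486 passed in WT mice at 0.54 ± 0.10 (adjusted p = 0.0067), and the other tests of single probe sets of Socs2 did not pass.

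Socs1 (chr16:10783808-10785536), which inhibits JAK kinases directly and is best known for restraining interferon signalling, had means of 0.18 ± 0.18 in KO esophagus and 0.01 ± 0.16 in KO marrow under Dox. In WT mice its means were 0.40 ± 0.10 in the esophagus and 0.00 ± 0.07 in marrow under Dox (SD, n = 3 each). The difference was 0.17 ± 0.18 in KO and 0.40 ± 0.18 in WT mice, and neither passed with all arrays (limma adjusted p = 0.631 in KO and 0.121 in WT). Leaving out the outlying array, the WT difference passed at 0.0134.

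Pim1 (chr17:29490785-29496111) encodes a serine/threonine kinase that STAT5 induces and that supports cell survival. Its mean over 2 probe sets was 1.60, 1.33 and 1.62 in KO esophagus, against -0.22, -0.08 and -0.19 in KO marrow under Dox. Pim1 in WT mice was 1.54, 0.46 and 1.43 in the esophagus, against -0.25, -0.07 and -0.03 in marrow under Dox. The tissues did not overlap, and WT esophagus replicate 2 lay well below the other esophageal arrays. The difference was 1.68 ± 0.23 in KO mice (3.21-fold, adjusted p = 0.000389) and 1.26 ± 0.23 in WT mice (2.39-fold, limma adjusted p = 0.0037). As with Socs3, 1 probe set carried it: 17335540 differed by 2.94 ± 0.34 in KO and 2.14 ± 0.34 in WT mice, and 17343057 by 0.42 ± 0.19 and 0.38 ± 0.19, which did not pass with all arrays, while 17343057 in WT mice reached 0.0486 without marrow KO no-Dox replicate 3.

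**Figure D3:**
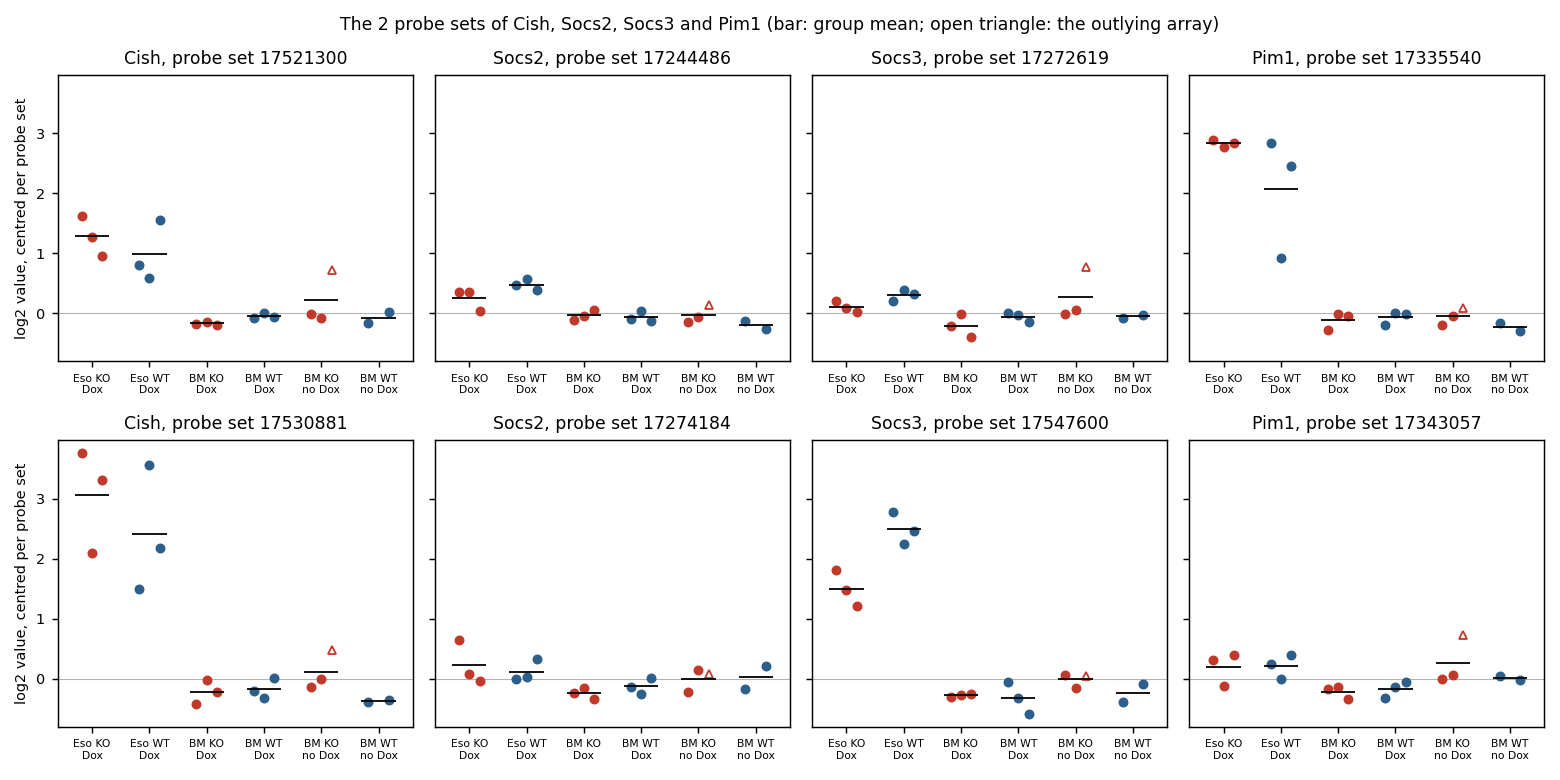
Value of each of the 2 probe sets of Cish, Socs2, Socs3 and Pim1 on every array (vertical axis, centred log2), by group, with a bar at the group mean and an open triangle for marrow KO without Dox replicate 3. Cish is high in the esophagus by both probe sets, while Socs3 (17547600) and Pim1 (17335540) are clearly high by 1 probe set, with KO esophagus means of 1.50 and 2.84.

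The paired probe sets ran together over the 16 arrays that exclude the outlying one, with Pearson's r of 0.872 for Cish, 0.819 for Socs3, 0.724 for Pim1 and 0.415 for Socs2. These arrays share tissue groups and the correlations are a description only. Within the 6 esophageal arrays, which are 3 of each genotype, the same probe set pairs gave 0.0272 for Cish, 0.732 for Socs3, 0.419 for Pim1 and 0.0853 for Socs2. Of the 45 pairs among the 10 genes, 4 had an r past 0.75 in size over those 6 arrays. An r over 6 arrays is imprecise, and the share of all gene pairs past that size was not computed. The 4 pairs are therefore a description only, and their r also holds any difference between the genotypes. Csf2rb2 ran with Pim1 (r = 0.857) and Csf2rb with Socs2 (r = 0.762), while Csf2ra ran against Cish (r = -0.925) and Il5ra against Socs3 (r = -0.787). With WT esophagus replicate 2, Csf2rb2 and Pim1 were both at their lowest esophageal value (0.52 and 0.46), while Cish there was 3.57 by probe set 17530881, its highest WT value, and 0.60 by probe set 17521300, its lowest esophageal value.

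The tissue groups also differed in markers of other cells. The 12 measured neutrophil markers averaged -2.55 to -2.39 per array in KO esophagus and -3.34 to -2.50 in WT esophagus, against -0.05 to 0.36 in KO marrow and 0.00 to 0.40 in WT marrow under Dox. Of these 12, 9 were called lower and 1 higher in KO esophagus, and 8 lower and 1 higher in WT esophagus. For these and the marker counts that follow, 6.04% of all genes were called lower and 4.5% higher in KO esophagus. In WT esophagus 7.06% of all genes were called lower and 8.11% higher. The 10 mast cell and basophil markers averaged -1.10 to -0.97 in KO esophagus and -1.03 to -0.91 in WT esophagus, against 0.09 to 0.36 over the marrow Dox arrays, and 4 were called lower in each genotype. The 11 monocyte and macrophage markers averaged -0.30 to -0.12 over the esophageal arrays, against 0.13 to 0.41 over the marrow Dox arrays. Of these 11, 6 were called lower and 1 higher in KO esophagus, and 2 lower and 1 higher in WT esophagus. Of 8 T, NK and innate lymphoid cell markers 1 was called lower in each genotype, and of 4 B cell markers 1 in KO and 0 in WT esophagus. The 7 fibroblast and endothelial markers averaged 0.35 to 0.66 in KO esophagus and 0.22 to 0.49 in WT esophagus, against -0.11 to -0.06 over the marrow Dox arrays. Of these 7, 3 were called higher in KO and 1 in WT esophagus, and 0 were called lower in either. The 8 eosinophil markers had group means of -0.27 in KO and -0.71 in WT esophagus. The marrow Dox means were 0.35 in KO and 0.31 in WT mice. Of these 8, 3 were called higher and 4 lower in KO esophagus, and 2 higher and 3 lower in WT esophagus. Their median difference was -0.28 in KO and -0.53 in WT mice. Single eosinophil genes moved both ways. The granule genes Epx (-3.50 ± 0.41 in both genotypes) and Prg2 (-2.20 ± 0.35 in KO and -3.53 ± 0.35 in WT mice) fell. Alox15 (3.36 ± 0.59 in KO and 2.95 ± 0.59 in WT mice) and Adgre1 (1.68 ± 0.32 and 1.64 ± 0.32) rose. The 5 epithelial markers averaged 0.11 to 0.50 in KO esophagus and 0.03 to 0.29 in WT esophagus, against -0.22 to -0.04 over the marrow Dox arrays, with 1 called higher in KO and 0 in WT esophagus. The part of these differences in the results for the 10 genes was not tested.

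Between genotypes, none of the 10 genes passed the test in esophageal eosinophils, where 0.347% of all genes did by limma, and 3 of the 10 (Il5ra, Csf2rb2 and Socs3) were under an unadjusted p of 0.05, where 14.7% of all genes were. The deleted gene itself gave no check of the labels: Pirb was 0.77, 1.20 and 1.02 in KO esophagus, against 2.17, 0.75 and 0.92 in WT esophagus, and no genotype difference in Pirb passed. No source used here says whether the 1 Pirb probe set reads a stretch that the knockout removes, so directions between genotypes rest on the labels. The arrays of KO and WT esophagus did not overlap for Il5ra and Socs3, which are 2 of 10 genes, where 23.3% of all genes showed this.

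Il5ra was higher in the 3 KO esophageal arrays (2.26 to 2.71) than in the 3 WT ones (-0.05 to 1.69), with means of 2.51 ± 0.23 in KO and 0.91 ± 0.88 in WT esophagus (SD, n = 3 each). The difference was 1.60 ± 0.50 (SE, 95% interval 0.52 to 2.67), a value of 3.02-fold, and it did not pass (limma adjusted p = 0.211, and 0.0940 without marrow KO no-Dox replicate 3). Csf2rb2 differed by 0.86 ± 0.30 (95% interval 0.20 to 1.51, limma adjusted p = 0.254), and WT esophagus replicate 1 at 1.89 lay within the KO range. Without that WT array the difference was 1.21 and passed at 0.0415, and without WT esophagus replicate 2 it was 0.52 (adjusted p = 0.606). The eosinophil receptor Siglecf, whose protein was used in the sort, moved with Il5ra, since it was higher in KO than in WT esophagus by 0.95 ± 0.16 (limma adjusted p = 0.0259), and its part in the result for Il5ra was not tested.

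Socs3 went the other way, with 1.00, 0.78 and 0.62 in KO esophagus, against 1.49, 1.32 and 1.39 in WT esophagus. The difference was -0.60 ± 0.13 on the log2 scale (95% interval -0.88 to -0.31) and missed the threshold with all arrays (limma adjusted p = 0.0848). Without marrow KO no-Dox replicate 3 it passed at 0.0183, where 3.44% of all genes passed. Taken alone over all 33793 probe sets, probe set 17547600 passed with all arrays, at 0.501-fold (SE 0.17 on the log2 scale, adjusted p = 0.0356, where 0.231% of probe sets passed). Its values were 1.81, 1.47 and 1.22 in KO esophagus, against 2.78, 2.25 and 2.46 in WT esophagus, while probe set 17272619 gave 0.20, 0.10 and 0.03 in KO esophagus, against 0.20, 0.38 and 0.32 in WT esophagus, a difference of -0.19 ± 0.17 that did not pass (0.576). A call for lower Socs3 in KO esophagus therefore rests on 1 of 2 probe sets, on leaving out 1 array or on weighting the arrays.

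The other genes showed smaller genotype differences in the esophagus, none of them past the test. Cish differed by 0.47 ± 0.26, Pim1 by 0.38 ± 0.23, Csf2rb by 0.20 ± 0.29 and Socs1 by -0.23 ± 0.18. Il3ra, Csf2ra and Socs2 differed by -0.07 ± 0.19, -0.10 ± 0.18 and -0.06 ± 0.11, with 95% intervals between -0.49 and 0.34 for these 3 genes. The means of Pim1 and Socs2 average unlike probe sets. Pim1 differed by 0.76 ± 0.34 with 17335540 (limma adjusted p = 0.340) and by -0.01 ± 0.19 with 17343057. Socs2 differed by -0.23 ± 0.10 with 17244486 (adjusted p = 0.343) and by 0.11 ± 0.17 with 17274184. Cish differed by 0.64 ± 0.46 with 17530881 and by 0.30 ± 0.25 with 17521300. Whether the tissue difference itself depended on genotype was tested as an interaction, and none of the 10 genes passed (0.00451% of all genes did by limma). Of the 10 genes Socs3 was the one under an unadjusted p of 0.05 there (4.95% of all genes were), at -0.54 ± 0.19 (adjusted p = 0.882), and Il5ra had 1.39 ± 0.71 (adjusted p = 0.962). That Il5ra passed between tissues in KO and not in WT mice is thus not shown to be a difference between the genotypes.

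**Figure D4:**
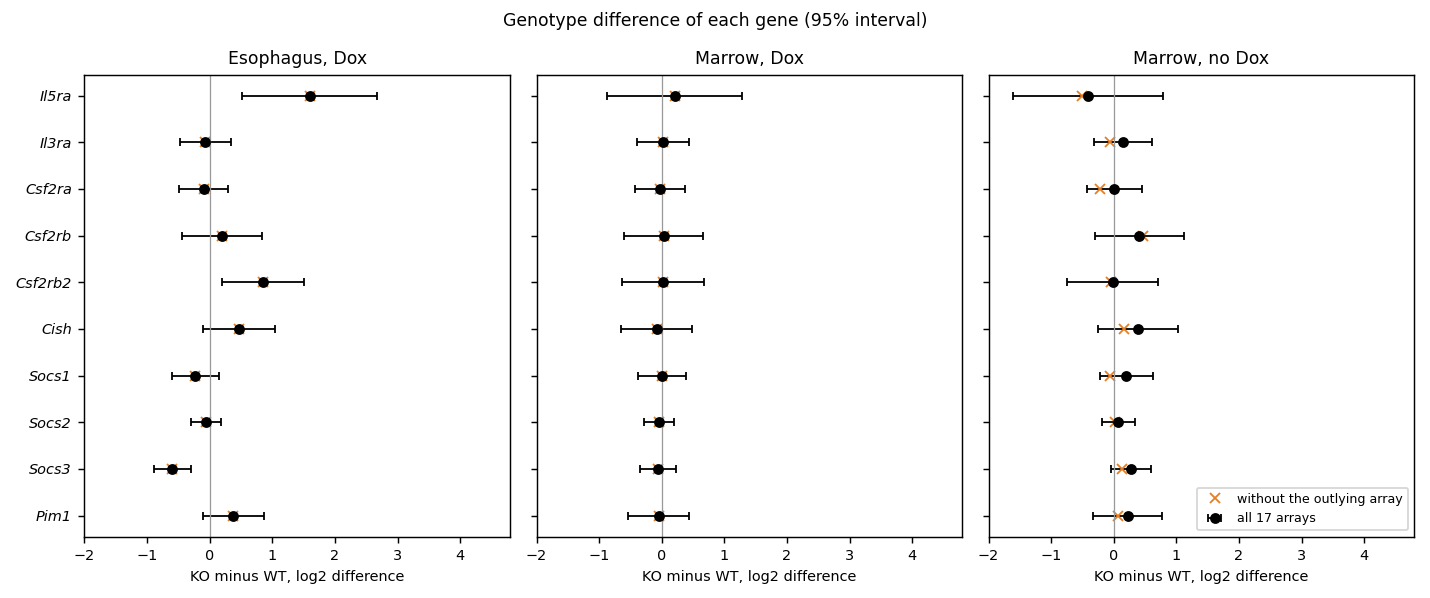
KO minus WT on the log2 scale (horizontal axis) for each gene in esophagus under Dox, marrow under Dox and marrow without Dox, with 95% intervals from all 17 arrays and crosses for the value without marrow KO no-Dox replicate 3. The widest departures from 0 are in the esophagus, at 1.60 for Il5ra, 0.86 for Csf2rb2 and -0.60 for Socs3, and none passed the adjusted test with all arrays.

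In marrow none of the 10 genes passed between genotypes. Under Dox the KO minus WT differences ran from -0.08 (Cish) to 0.21 (Il5ra), 0 of 10 passed, and 0 were under an unadjusted p of 0.05 by limma. Of all genes 0% passed and 1.83% were under that unadjusted p. The 95% intervals were widest for Il5ra, from -0.87 to 1.28, and narrowest for Socs2, from -0.28 to 0.20. Without Dox 0 of 10 passed and 0 were under an unadjusted p of 0.05, where 0% of all genes passed and 8.16% were under that unadjusted p. Csf2rb, Cish and Socs3 did not overlap between KO and WT marrow without Dox, which are 3 of 10 genes where 23.3% of all genes showed this, with differences of 0.41 ± 0.33, 0.39 ± 0.30 and 0.27 ± 0.15. Without marrow KO no-Dox replicate 3 these were 0.46, 0.17 and 0.13.

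Between marrow eosinophils with and without Dox none of the 10 genes passed either. In KO marrow 0 of 10 passed (0.0225% of all genes did by limma), and 1 gene, Socs3, was under an unadjusted p of 0.05, as were 27.3% of all genes. Socs3 was -0.26, -0.14 and -0.32 in KO marrow with Dox, against 0.02, -0.04 and 0.42 in KO marrow without Dox, and the value of 0.42 is that of the outlying array. The difference of -0.37 ± 0.13 had an adjusted p of 0.153, and of 0.538 without that array. The arrays did not overlap for 2 of 10 genes, Cish and Socs3, where 36.5% of all genes showed this. In WT marrow 0 of 10 passed (0.0225% of all genes) and 0 were under an unadjusted p of 0.05 by limma, with differences from -0.21 (Csf2rb2) to 0.20 (Il3ra). Of all genes 4.31% were under that unadjusted p. The arrays did not overlap for Csf2ra and Cish, 2 of 10 genes, where 25.3% of all genes showed this. The interaction of Dox with genotype passed for 0 of 10 genes by limma (0% of all genes), and 0 of 10 were under an unadjusted p of 0.05, as were 6.27% of all genes.

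The rest of the pathway was followed through 6 lists of 95 genes, of which 88 were measured by a probe set with 1 symbol. Between tissues 15 of the 88 were called higher and 3 lower in KO esophagus, and 12 higher and 5 lower in WT esophagus, against the backgrounds given above. The share of all genes called lower was 6.04% in KO and 7.06% in WT esophagus. The median difference of the 88 was 0.17 in KO and 0.12 in WT mice. Without marrow KO no-Dox replicate 3 the number called in either direction was 29 in each genotype, where 18.8% of all genes were called in KO and 36.5% in WT mice. The genotype by tissue interaction passed for 0 of the 88 by limma (0.00451% of all genes), and 8 were under an unadjusted p of 0.05 (4.95% of all genes). A call in 1 genotype alone in the lists below is thus not shown to be a difference between the genotypes.

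Of the 3 ligand genes 1 was called higher, in WT mice, where 8.11% of all genes were. Il5 was higher in WT esophagus than in WT marrow by 0.48 ± 0.11 (limma adjusted p = 0.0126), at means of 0.38 ± 0.13 in the esophagus and -0.10 ± 0.10 in marrow, and gave 0.13 ± 0.11 in KO mice. Il3 gave 0.05 ± 0.15 in KO and 0.18 ± 0.15 in WT mice, and Csf2 0.24 ± 0.11 in KO and 0.30 ± 0.11 in WT mice, none of which passed with all arrays. Without marrow KO no-Dox replicate 3, Csf2 passed in WT mice at 0.0349.

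Among the 9 measured JAK kinases and STAT factors, 2 were higher in KO esophagus, where 4.5% of all genes were. These were Stat6, the factor of IL-4 and IL-13 signalling, by 1.75 ± 0.52 (limma adjusted p = 0.0464) and Tyk2 by 0.32 ± 0.08. In WT esophagus 0 of the 9 were called (15.2% of all genes in either direction), and 3 were under an unadjusted p of 0.05 (36% of all genes). With the outlying array left out 6 of the 9 were called higher in KO esophagus, where 9.75% of all genes were. In WT esophagus 2 of the 9 were then called lower, where 36.5% of all genes were called in either direction. These 2 were Stat2 (-0.53 ± 0.18, limma adjusted p = 0.0335) and Stat4 (-0.87 ± 0.38, adjusted p = 0.0339). All ± values in this paragraph are those of the fit with all arrays, also where the adjusted p is from the fit without the outlying array. Stat5a gave -0.05 ± 0.15 in KO and 0.15 ± 0.15 in WT mice. Stat5b gave 0.71 ± 0.24 in KO mice (adjusted p = 0.0850, and 0.0486 without the outlying array) and 0.07 ± 0.24 in WT mice. Jak2, the kinase bound to the beta chain, gave 1.21 ± 0.59 in KO mice (0.247, and 0.0451 without the outlying array) and 0.82 ± 0.59 in WT mice. Jak1 gave 1.02 ± 0.35 in KO mice (0.0901, and 0.0172 without the outlying array) and 0.54 ± 0.35 in WT mice.

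Of 20 other negative regulators, 3 were higher in KO esophagus, where 4.5% of all genes were. These were the phosphatase genes Ptpn1 (0.89 ± 0.21) and Ptpn2 (0.82 ± 0.22) and the adaptor gene Sh2b3 (0.44 ± 0.13). Ptpn1 alone of the 20 was higher in WT esophagus (0.82 ± 0.21), where 8.11% of all genes were. None were called lower with all arrays, although 13 of 20 differences in KO and 10 of 20 in WT mice were above 0 and the others below. With the outlying array left out 3 of the 20 were called higher and 1 lower in KO esophagus, where 9.75% of all genes were called higher. In WT esophagus 2 were then called higher and 2 lower, where 25.1% of all genes were called higher. Ptpn11, the phosphatase SHP-2, was then called lower in both genotypes (-1.44 ± 0.61 in KO and -1.83 ± 0.61 in WT mice). Pias2 was then called lower in WT mice (-0.98 ± 0.36). Here too the ± values are those of the fit with all arrays. In that fit without the outlying array 18.8% of all genes were called in either direction in KO mice and 36.5% in WT mice.

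The 22 other genes known to respond to STAT5, IL-5, IL-3 or GM-CSF held more calls than any other of the 6 lists. The lists differ in size and were written with earlier results of these data known. In KO esophagus 6 of the 22 were called higher and 2 lower (4.5% and 6.04% of all genes). In WT esophagus 8 were higher and 1 lower (8.11% and 7.06%). The median difference was 0.12 in KO and 0.23 in WT mice, with 13 of 22 above 0 in KO (63.6% of all genes) and 12 of 22 in WT mice (70%). Higher in both genotypes were Dusp5, a phosphatase gene induced by ERK signalling (2.71 ± 0.16 in KO and 2.13 ± 0.16 in WT mice), Cdkn1a, the cell cycle inhibitor p21 (2.66 ± 0.17 and 2.31 ± 0.17), Egr1 (2.03 ± 0.25 and 1.34 ± 0.25), the cytokine gene Osm (1.45 ± 0.25 and 1.27 ± 0.25), the survival gene Mcl1 (1.22 ± 0.16 and 0.81 ± 0.16) and Pim3 (0.57 ± 0.12 and 0.43 ± 0.12). The cytokine gene Lif (0.52 ± 0.14) and Pim2 (0.67 ± 0.17) passed in WT mice, and in KO mice they gave 0.21 ± 0.14 and 0.46 ± 0.17 and did not pass with all arrays. The interaction did not pass for either gene. The cyclin gene Ccnd2 was lower in both, by -2.04 ± 0.25 in KO and -1.12 ± 0.25 in WT mice, and Myc was lower in KO esophagus by -0.80 ± 0.20.

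Of 12 receptor-proximal partners, 2 were called higher and 0 lower in KO esophagus (4.5% and 6.04% of all genes). In WT esophagus 1 was called higher and 2 lower (8.11% and 7.06% of all genes). Syk rose in both genotypes (1.67 ± 0.22 in KO and 1.53 ± 0.22 in WT mice). Sdcbp, which encodes syntenin, a protein that binds the IL-5 receptor alpha chain, was higher in KO esophagus (0.85 ± 0.22), and Sos1 (-1.14 ± 0.36) and Pik3r1 (-1.38 ± 0.43) were lower in WT esophagus. Of 22 other cytokine receptor chains, 2 were called higher and 1 lower in KO esophagus, and 1 higher and 2 lower in WT esophagus, against the same shares of all genes. Il6ra was lower in both genotypes (-0.60 ± 0.13 in KO and -0.50 ± 0.13 in WT mice). Il10rb (0.86 ± 0.15) and Ifnar1 (1.13 ± 0.28) were higher in KO esophagus, and Lifr was higher (0.58 ± 0.17) and Ifngr1 lower (-0.82 ± 0.24) in WT esophagus.

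**Figure D5:**
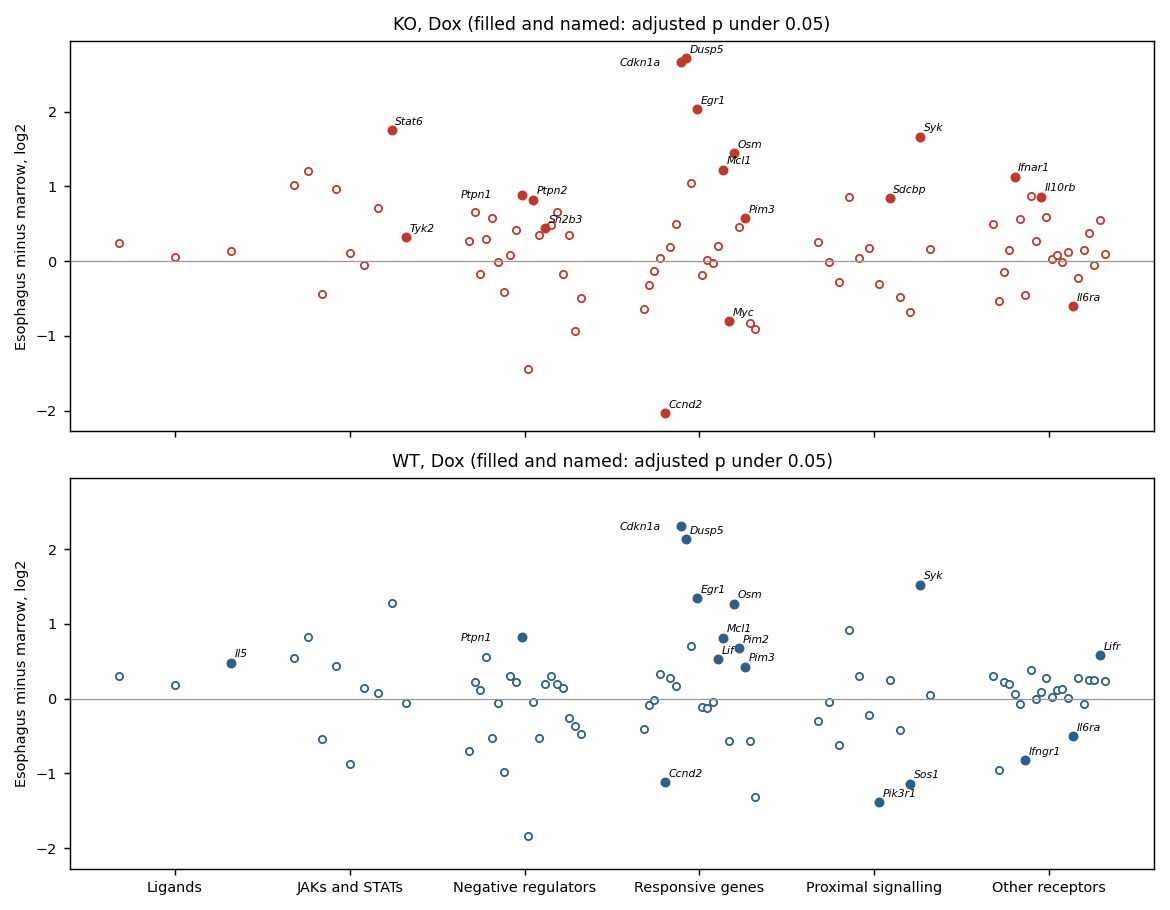
Esophagus minus marrow under Dox on the log2 scale (vertical axis) for the 88 measured pathway genes, grouped by list along the horizontal axis, KO above and WT below, with filled and named points past the adjusted p threshold of 0.05. The list of responsive genes holds more called points than any other list, and there Dusp5 and Cdkn1a reach 2.71 and 2.66 in KO mice. The lists differ in size and were written with earlier results of these data known.

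Between genotypes in the esophagus 0 of the 88 passed by limma with all arrays (0.347% of all genes did) and 18 were under an unadjusted p of 0.05 (14.7% of all genes). Without marrow KO no-Dox replicate 3, 8 passed (3.44% of all genes did), namely Stat4 (1.55 ± 0.38), Ifnar1 (1.15 ± 0.28), Ptpn2 (1.02 ± 0.22), Ptpn6 (0.91 ± 0.38), Sdcbp (0.83 ± 0.22), Il10rb (0.69 ± 0.15) and Dusp5 (0.64 ± 0.16), which were higher in KO esophagus, and Epor (-0.40 ± 0.11), which was lower. The ± values are those of the fit with all arrays. Stat5b differed by 0.91 ± 0.24 (limma adjusted p = 0.153, and 0.0504 without that array), at 0.73 ± 0.32 in KO esophagus and -0.18 ± 0.45 in WT esophagus (SD, n = 3 each), and Stat5a by -0.11 ± 0.15. Il5 differed by -0.29 ± 0.11 (0.270) between KO and WT esophagus.

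The genes most like 3 of the 10 over all arrays were named by their Pearson correlation, as a description in which the arrays share tissue groups. Cish went most closely with Dusp5 (r = 0.975), Cxcl3 (0.974) and Samd4b (0.963) over 17 arrays, and with Cxcl3 (0.983), Dusp5 (0.976) and Gm2848 (0.967) over the 16 without the outlying one. Cxcl3, a neutrophil-attracting chemokine gene, was 3.99 ± 0.40 in KO esophagus and 2.62 ± 1.33 in WT esophagus, against -0.15 ± 0.02 in KO marrow and -0.17 ± 0.06 in WT marrow under Dox. Il5ra went with F630111L10Rik (0.915), Siglecf (0.913) and Tnik (0.907) over 17 arrays, and with Wac (0.919), Sar1a (0.918) and Eps15 (0.917) over 16. Siglecf was 1.11 ± 0.30 in KO esophagus, 0.17 ± 0.14 in WT esophagus and at means from -0.36 to -0.02 in the 4 marrow groups. The esophageal groups thus stood in the same order as for Il5ra, which picking genes by correlation over these same arrays favours. Csf2rb went with Errfi1 (0.902), Mbp (0.882) and Mir30d (0.879) over 17 arrays, and with Errfi1 (0.902), 2010310C07Rik (0.896) and Mal (0.894) over 16.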

How the data were processed

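RNA of sorted eosinophils was measured on 17 Affymetrix arrays in 6 groups. The authors deposited log values, here taken as log2, for 33793 probe sets, and per the submitters' processing notes these came from Affymetrix Expression Console. The log base, the genome build and the software version are not given in the sources used here. In 96.98% of probe sets an array's value has an equal and opposite partner (tolerance 2e-05), so each probe set was centred between arrays before deposit. This removes levels, and no filter on brightness was possible.

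Probe sets with 1 gene symbol (23521, with 1814 holding several and 8458 none) were averaged to 22180 genes, 1082 of them with several probe sets. Of the 23521, 23328 matched the GRCm38.p6 gene table. limma 3.58.1 in R 4.3.3 fitted 6 group means to all 17 arrays (lmFit, eBayes), and 9 contrasts were tested two-sided with Benjamini-Hochberg adjustment over all genes at 0.05. Errors are SE for differences and SD for group means. The fit was tested on simulated data.

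All 10 genes are given in every contrast, every listed pathway gene that passed may be named, Il5, Il3, Csf2, Jak1, Jak2, Stat5a and Stat5b are always given, and for Il5ra, Csf2rb and Cish the 3 most correlated genes are named. The genes and lists were chosen with earlier results of these data known. Of 72 marker genes 65 were measured. No 2 arrays of a group were duplicates (highest r 0.832). Whether replicate numbers pair the arrays is not known, and the fit reported did not pair them. Arrays limit precision by their number.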

Additional observations from a re-analysis of the deposited data

How the results depend on the processing

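The 10 genes were recomputed under 28 alternative settings, 17 of them leaving out 1 array and 4 of them chosen after seeing the data. No difference that passed reversed its direction. The number of genes passing between KO and WT esophagus was 0 as reported and 1, Socs3, with array weights (adjusted p = 0.0355), with the highest-numbered probe set (0.0283), and, without marrow KO no-Dox replicate 3, with the replicate block (0.0225), with a Y-linked covariate (0.0083) and with array weights (0.0378). Leaving out 1 array gave 0 to 1. For WT tissues the number was 5 as reported, 8 with array weights, 8 with array weights and that array left out, 3 with the highest-numbered probe set and 4 to 7 leaving out 1 array. For KO tissues it was 6 as reported, 8 with array weights, 8 with array weights and that array left out, 4 with the lowest- or the highest-numbered probe set and 5 to 7 leaving out 1 array. Quantile normalization gave 4 in each genotype, and centring each array on its median gave 4 in WT and 5 in KO mice.

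Csf2rb2 and Cish passed between tissues in both genotypes under all 28 settings. Socs3 and Pim1 passed under 27, Socs3 failing with the lowest-numbered probe set (adjusted p = 0.300 in KO and 0.145 in WT) and Pim1 with the highest-numbered (0.200 in KO and 0.154 in WT). Il5ra in KO mice passed under 27, failing with quantile normalization (1.93, 0.146). Socs2 passed under 7 in KO and 19 in WT mice. Where a setting took away or gave a call, the cause was not tested unless it is the choice of probe set. Csf2ra passed in both genotypes without marrow KO no-Dox replicate 1 (0.0453 in KO and 0.0222 in WT), and Socs1 in WT mice with array weights (0.0436).

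Arrays were also correlated after each gene's group mean was subtracted. Same-numbered arrays of different groups then gave a median r of 0.0352 (40 pairs) and differently numbered ones -0.0217 (80 pairs). Since the deviations within a group sum to 0, these medians are not independent of each other. The same-numbered pairs thus lay a little higher. Whether a shared replicate number marks a shared batch or a pairing was not tested. With the replicate number as a block 0 genes passed between KO and WT esophagus, 5 between KO tissues (Socs2 missing at 0.0739) and 5 between WT tissues. The difference of all genes between WT tissues had a median of 0.14, and the differences as reported include that shift. With each array centred on its median, 10 of 10 genes stayed above 0 between tissues in each genotype. Their median difference was then 0.78 in WT and 0.93 in KO mice. A filter on dim probes was not run because the values are centred, and 2 or 3 arrays a group limit every result.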
